A study of Bos taurus with 10 samples.

Results

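Nodal and activin signalling was followed at the RNA level in single bovine early blastocysts, in a set of 10 genes chosen by name: the ligand genes *NODAL*, *GDF3*, *INHBA* and *INHBB*, the co-receptor gene *TDGF1*, the receptor genes *ACVR1B* and *ACVR2B*, the signal transducer gene *SMAD2*, and the inhibitor genes *LEFTY2* and *FST*. The deposited table of 20112 genes held a row for 8 of them, and *NODAL* and *FST* are not analysed here. The study compared 5 WT embryos with 5 *SOX2* KO embryos, fertilized in vitro and labelled as early blastocysts of day 7.0 after fertilization. The study's text gives a later time of collection than the labels do. WT embryos received mRNA of BE3, a cytosine base editor, at the zygote stage without sgRNA. *SOX2* KO embryos received the same mRNA together with a mixture of sgRNAs designed to write early stop codons into *SOX2*, so the editor itself was shared by both groups. Each embryo was sequenced on its own as polyadenylated RNA (Smart-seq2), and the authors inferred its genotype from part of its cDNA.

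Nodal and the activins are secreted ligands of the TGF-β family. They bind a type II receptor such as ACVR2B, which recruits and activates a type I receptor such as ACVR1B, and the activated receptor phosphorylates SMAD2 and SMAD3. These join SMAD4 and enter the nucleus, where FOXH1 is a well-known DNA-binding partner. Nodal and GDF3 need the co-receptor encoded by *TDGF1* (also called CRIPTO), whereas activins do not. LEFTY proteins block Nodal and are themselves induced by the pathway, and follistatin traps activins. In mammalian embryos the pathway is best known for its part in the epiblast, the pluripotent cells that form the embryo proper, and in the patterning of germ layers.

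The values are normalized read counts, that is, gene-level reads after division by each embryo's DESeq2 size factor. WT embryos had 2223670 to 5134855 reads on genes and *SOX2* KO embryos 2578284 to 4337342, and 1 read was worth between 0.590 and 1.48 normalized counts. Values of 3 reads or fewer are treated as the floor, a limit that covers counting error only. The 18S ribosomal RNA gene *RN18S1* accounted for 26.4% to 37.0% of WT reads and for 32.5% to 45.0% of *SOX2* KO reads. The 10 libraries are separate embryos, and WT embryos are named nc1 to nc5 and *SOX2* KO embryos ko1 to ko5 as in the table. The targeted gene, *SOX2*, was at 56.5, 93.4, 83.5, 73.0 and 84.4 in nc1 to nc5 and at 39.0, 26.4, 64.0, 82.1 and 71.5 in ko1 to ko5, a log2 fold change of -0.55 (95% interval -1.12 to 0.02, limma adjusted p = 0.167). Premature stop codons need not lower the RNA, so these levels do not check the editing. The number of genes called over the whole transcriptome rested on single embryos, with 3316 calls without ko4 and 930 without ko5 against 2024 with all 10.

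The members were compared between the groups with limma on log2(normalized read count + 1), and a gene was called where p, adjusted by Benjamini-Hochberg over all 20056 tested genes, was no more than 0.05 and the level differed 2-fold or more. All 8 members with a row passed the filter on low values, a mean of at least 1. *LEFTY2* fell to 0.172 of its WT level and was the only member called. No member was called higher. The other 7, including the receptors and *SMAD2*, had adjusted p from 0.0901 to 0.977, and each of the 8 members had WT and *SOX2* KO embryos with overlapping values. Over all tested genes, 10.1% were called, 8.93% higher and 1.16% lower, and 13.6% passed the adjusted p alone. The groups did not overlap in 9.17% of all tested genes, 6.41% with *SOX2* KO higher and 2.76% with *SOX2* KO lower. A count of 1 call among 8 genes is thus near the background of 10.1% and is not read as a change of the set. The median log2 fold change of the 8 members was -0.17, beside 0.25 over all tested genes. The latter depends on level, with medians of 0.93 for genes with a mean of 1 to under 10, 0.04 for 10 to under 100 and -0.11 for 100 or more, so the difference in sign is not read as particular to the members.

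**Figure D1:**
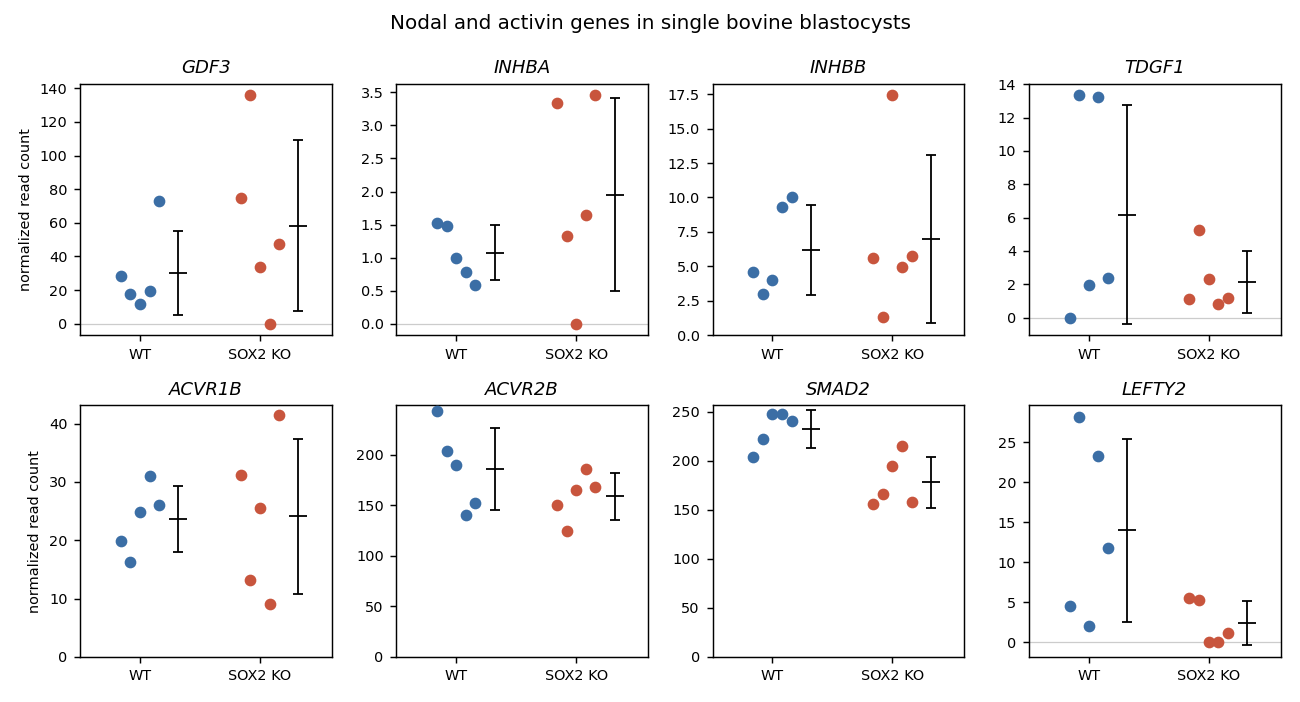
Normalized read count of the 8 members (y axis, linear, a separate scale for each gene) in the 5 WT (blue) and 5 *SOX2* KO (red) embryos, plotted from nc1 to nc5 and from ko1 to ko5. Each point is 1 embryo, and the black bar is the mean with its SD. *LEFTY2* sits between 1.99 and 28.2 in WT and between 0 and 5.57 in *SOX2* KO, and *GDF3* is at 0 in 1 *SOX2* KO embryo only.

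Among the ligand genes, *GDF3* showed the widest spread between embryos. It encodes a ligand of the Nodal type that is found in pluripotent cells. WT embryos nc1 to nc5 had normalized read counts of 28.2, 17.8, 11.9, 19.4 and 73.2, and *SOX2* KO embryos ko1 to ko5 had 74.6, 136, 33.7, 0 and 47.3. The 4 *SOX2* KO embryos other than ko4 all lay above 4 of the 5 WT embryos, while ko4 had 0 of its 4337342 reads on *GDF3*. That count allows up to 3 reads, or a normalized count of 2.46. The group means were 30.1 ± 24.8 (SD, n = 5) in WT against 58.3 ± 51.1 (SD, n = 5). With all embryos the log2 fold change was 0.14 (95% interval -1.65 to 1.93, limma adjusted p = 0.930). Without ko4 it was 1.34 and passed both thresholds (limma adjusted p = 0.0344), so whether this ligand was called rests on that embryo. Calls over all genes also rose without ko4, from 2024 to 3316. The sign rested on other embryos too, with log2 fold changes of -0.22 without ko1, -0.43 without ko2, -0.06 without ko5 and -0.11 without nc3. DESeq2 and edgeR with all embryos gave log2 fold changes of 0.95 and 0.78 (adjusted p = 0.555 and 0.383).

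*INHBA* encodes the βA subunit of activin A and inhibin A. It had 1 or 2 reads in each WT embryo and 0 to 3 in each *SOX2* KO embryo, so no embryo rose above the floor. Its normalized read counts were 0.590 to 1.53 in WT against 0 to 3.46 in *SOX2* KO, and a difference was not detectable at this depth (95% interval of the log2 fold change -0.76 to 1.46). *INHBB*, which encodes the βB subunit of activin B, was low as well. WT embryos had 4.58, 2.97, 3.98, 9.32 and 10.03, from 2 to 17 reads, and *SOX2* KO embryos had 5.57, 1.32, 17.4, 4.93 and 5.77, from 1 to 15 reads. The *SOX2* KO embryos lay on either side of the WT embryos. The log2 fold change was -0.03 (95% interval -1.20 to 1.14, limma adjusted p = 0.977), an interval that leaves room for a 2-fold difference in either direction.

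The co-receptor gene *TDGF1* split the WT embryos. Embryos nc2 and nc4 had normalized read counts of 13.3 and 13.2, from 9 and 17 reads, whereas nc1, nc3 and nc5 had 0, 1.99 and 2.36, from 0, 2 and 4 reads. *SOX2* KO embryos had 1.11, 5.28, 2.33, 0.821 and 1.15, from 1 to 4 reads each. No *SOX2* KO embryo reached the level of nc2 or nc4, but all 5 fell within the whole WT range. The means were 6.18 ± 6.54 (SD, n = 5) in WT against 2.14 ± 1.85 (SD, n = 5), with a log2 fold change of -0.71 (95% interval -2.15 to 0.72, limma adjusted p = 0.491). DESeq2 and edgeR on the reads gave larger log2 fold changes of -1.54 and -1.56 (adjusted p = 0.283 and 0.235). All *SOX2* KO embryos but ko2 were at the floor.

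The receptor genes were detected in every embryo. *ACVR2B*, a type II receptor of Nodal and activins, had 243, 203, 190, 141 and 152 in WT and 150, 124, 165, 186 and 168 in *SOX2* KO embryos. The highest 3 values were WT embryos, and the lowest was a *SOX2* KO embryo. The means were 186 ± 41.0 (SD, n = 5) in WT against 159 ± 23.1 (SD, n = 5), and the difference was within the spread between embryos (log2 fold change -0.21, 95% interval -0.58 to 0.16, limma adjusted p = 0.431). For this gene a 2-fold difference lies outside the interval. *ACVR1B*, the type I receptor, had 19.8, 16.3, 24.9, 31.1 and 26.0 in WT and 31.2, 13.2, 25.6, 9.04 and 41.5 in *SOX2* KO embryos. Its means were 23.6 ± 5.71 (SD, n = 5) and 24.1 ± 13.2 (SD, n = 5), so that the *SOX2* KO embryos spread over a wider range with ko5 at the top and ko4 at the bottom. The log2 fold change was -0.13 (95% interval -0.92 to 0.67, limma adjusted p = 0.848), and its sign changed without ko4 or ko2.

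*SMAD2* encodes the protein that carries the signal from the activated receptor into the nucleus. WT embryos had 204, 222, 248, 248 and 240, and *SOX2* KO embryos had 156, 166, 194, 215 and 158. Of the *SOX2* KO embryos, 4 lay below every WT embryo, and ko4 lay above nc1 alone. The means were 232 ± 19.0 (SD, n = 5) in WT against 178 ± 25.8 (SD, n = 5), a ratio of 0.766. The log2 fold change was -0.39 (standard error 0.15, 95% interval -0.71 to -0.07), which did not pass the adjustment over all genes with limma (adjusted p = 0.0901), DESeq2 (adjusted p = 0.0788) or edgeR (adjusted p = 0.0666). Without ko4 the limma adjusted p was 0.0363, still under the threshold on the fold change at -0.46. Of the 8 members, *SMAD2* and *LEFTY2* were the 2 with an unadjusted limma p under 0.05, a mark that 32.4% of all tested genes reached.

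**Figure D2:**
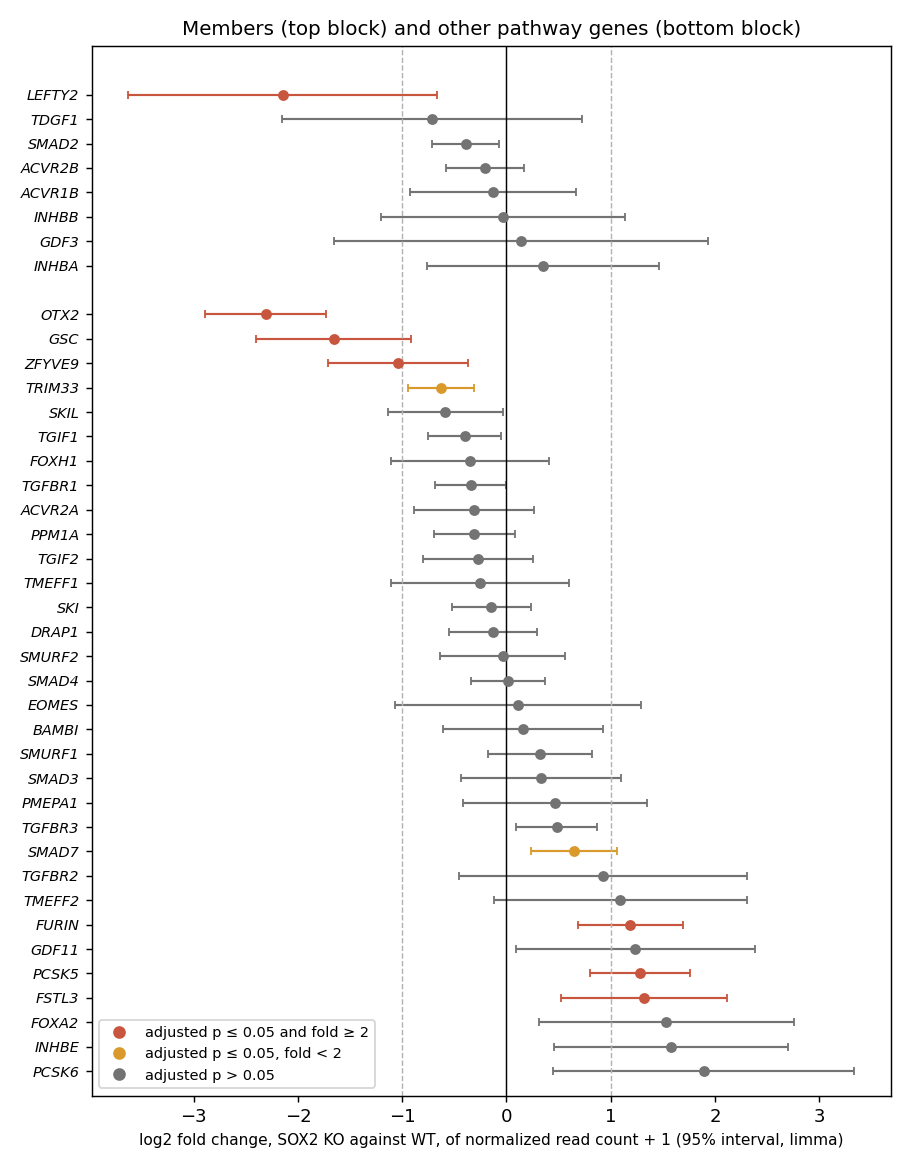
Log2 fold change of normalized read count + 1 in *SOX2* KO against WT embryos (x axis), with the 95% interval from limma, for the 8 members (top block) and the other pathway genes tested, all but 1 of the 33 (bottom block). Colours give the side of the thresholds, dashed lines mark a 2-fold change, and *LEFTY2* is the only member past both, while *SMAD2* has an interval below 0 and an adjusted p of 0.0901.

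*LEFTY2*, a secreted inhibitor of Nodal and a target of the pathway, had normalized read counts of 4.58, 28.2, 1.99, 23.3 and 11.8 in WT embryos, from 6, 19, 2, 30 and 20 reads. *SOX2* KO embryos had 5.57, 5.28, 0, 0 and 1.15, from 5, 4, 0, 0 and 1 reads. WT embryos nc2, nc4 and nc5 lay above every *SOX2* KO embryo, while nc1 and nc3 lay within the *SOX2* KO range. The means were 14.0 ± 11.5 (SD, n = 5) in WT against 2.40 ± 2.80 (SD, n = 5), resting on 77 reads in WT and 10 in *SOX2* KO. The log2 fold change was -2.15 (standard error 0.71, 95% interval -3.63 to -0.67, limma adjusted p = 0.0490). DESeq2 and edgeR on the reads gave -2.58 and -2.62 (adjusted p = 0.0286 and 0.0380). The direction held with each embryo left out, but the call was lost in 7 of those 10 fits, without nc1, nc2, nc4, nc5, ko3, ko4 or ko5, with adjusted p up to 0.125. With pseudocounts of 0.1 and 5 the limma adjusted p was 0.0694 and 0.0532. With the *RN18S1* share of each embryo as a covariate, the log2 fold change was -1.37 (limma adjusted p = 0.503), and the calls over all genes dropped to 220. The median share was 31.9% in WT and 36.8% in *SOX2* KO embryos, so this covariate partly follows the genotype. A call lost with it, here or for other genes, cannot be assigned to either of them.

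Markers of the epiblast moved with *LEFTY2*. All 7 markers with a row (*NANOG*, *POU5F1*, *SALL4*, *PRDM14*, *KLF17*, *ZFP42* and *DPPA3*) fell at an adjusted p of at most 0.05, and their summed normalized read count was 2484 to 2996 in WT against 1165 to 1577 in *SOX2* KO embryos, with *NANOG* at 0 in ko2. Several of these genes are among those that the study picked from the same embryos, so their direction is not independent evidence. Among 7 hypoblast markers 2 fell, *PDGFRA* and *HNF4A*, with summed levels of 1398 to 1835 and 1237 to 1410. Most of that sum was *GATA6*, with means of 958 in WT and 871 in *SOX2* KO embryos (limma adjusted p = 0.584). Among 11 trophectoderm markers 1 rose (*KRT18*) and 1 fell (*TFAP2C*). Summed trophectoderm levels were 25544 to 37622 in WT against 34983 to 47952 in *SOX2* KO embryos. Most of that sum was the keratin genes *KRT8* (means of 17496 and 22437) and *KRT18* (9100 and 15124), so it says little of the other markers. *CDX2* and *GATA3* had limma adjusted p of 0.127 and 0.617. Of 10 cumulus and granulosa markers 0 passed with limma, 2 had an unadjusted p under 0.05, and edgeR passed 1 (*CYP11A1*), with summed levels of 48.9 to 159 and 91.2 to 478. Over all tested genes 13.6% passed the adjusted p, 10.4% higher and 3.20% lower, and 32.4% had an unadjusted p under 0.05. The trophectoderm count is near that share, and the limma counts of the cumulus and granulosa markers are below it. In whole embryos, fewer cells of a type and less RNA per cell cannot be told apart, and the part of cell makeup in the *LEFTY2* result was not tested.

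Within the WT group, the embryos with much *LEFTY2* were those with much *NANOG*, a transcription factor of the epiblast. *NANOG* had 148 in nc4, 101 in nc2, 64.9 in nc5, 17.9 in nc3 and 17.6 in nc1. *LEFTY2* was likewise highest in nc2 and nc4, next in nc5 and lowest in nc1 and nc3, and *TDGF1* had its only WT values above 3 in nc2 and nc4. All 3 genes were higher in nc2 and nc4 than in nc1 and nc3. Of the 7 epiblast markers with a row, those other than *NANOG* ordered the WT embryos in other ways. *POU5F1* (1481) and *PRDM14* (80.1) were highest in nc1, and *POU5F1* (998) and *KLF17* (23.7) were lowest in nc2. *SALL4* was highest in nc3 (240), *KLF17* in nc4 (123), and *ZFP42* (657) and *DPPA3* (830) in nc2. The hypoblast markers *HNF4A* (144 and 123) and *GATA4* (15.5 and 16.3) were also highest in nc4 and nc2. The other hypoblast markers with a row were not, with *GATA6* highest in nc3 (1207) and *LAMA1* lowest in nc4 (15.5). High values in nc2 and nc4 are thus not particular to epiblast markers. Embryo nc2 has the smallest library and nc4 the second largest of the WT embryos. *GDF3* was ordered differently, with its highest WT value in nc5. In *SOX2* KO embryos *NANOG* was at most 7.39 and *LEFTY2* at most 5.57, and their orders differed, with ko4 highest for *NANOG* and at 0 for *LEFTY2*. With 5 embryos in a group no correlation was computed.

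**Figure D3:**
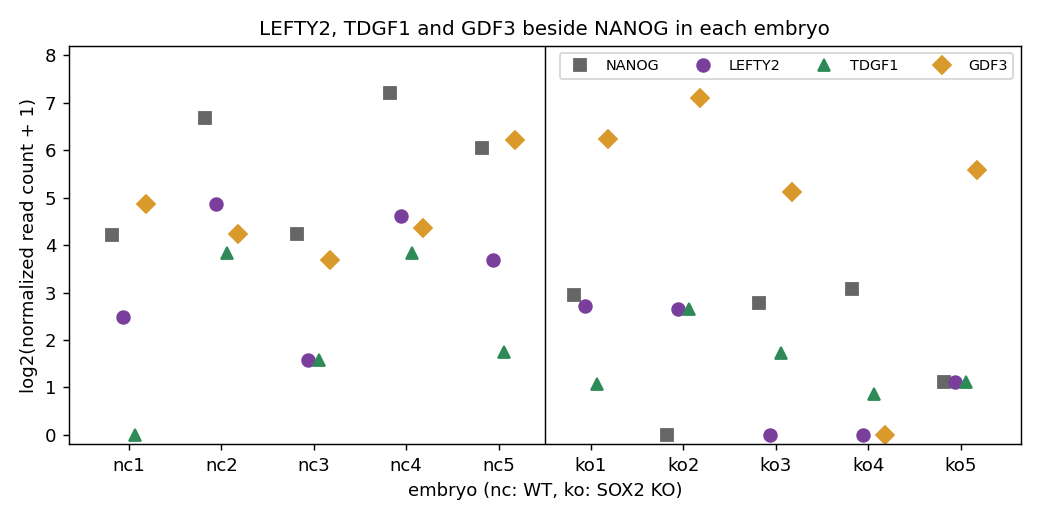
Level of *NANOG*, *LEFTY2*, *TDGF1* and *GDF3* (y axis, log2 of normalized read count + 1) in each of the 10 embryos (x axis, WT to the left of the line, *SOX2* KO to the right). *LEFTY2*, *TDGF1* and *NANOG* are all high in nc2 and nc4, and *GDF3* stays high in 4 *SOX2* KO embryos where *NANOG* is at most 7.39 normalized counts, with ko4 at 0.

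The pattern of a member over the 10 embryos was set beside those of the 6981 other genes with a mean of at least 50, by the root-mean-square difference of centred log2 levels. *ACVR2B* and *SMAD2* were the members with such a mean. The genes nearest to *SMAD2* were *CACYBP*, *MAPKAPK5* and *ZNF281*, at 0.097, 0.099 and 0.10, where *SMAD2* itself had an SD of 0.26. *ACVR2B* had *DDX6*, *NCAPD2* and *RALGAPB* nearest, at 0.13, 0.14 and 0.14, with an SD of 0.28. *GDF3* and *LEFTY2*, which have lower means, were added after their values were seen. For *GDF3* the nearest were *POF1B*, *BEX2* and *DMD*, at 0.83, 0.91 and 0.96, and these genes share its drop in ko4, with normalized read counts of 1.64, 0 and 3.29 there. For *LEFTY2* they were *PSAT1*, *PTGR1* and *TANC2*, at 0.72, 0.75 and 0.92, each with nc2 among its 2 highest WT embryos. Nearest genes exist for any pattern, and this order was not tested.

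A list of 45 other pathway genes was counted next, of which 33 had a row and were tested. Of the 33, 3 were called higher (*FURIN*, *PCSK5* and *FSTL3*) and 3 lower (*OTX2*, *GSC* and *ZFYVE9*), and *SMAD7* (higher) and *TRIM33* (lower) passed the adjusted p alone. Over all tested genes the shares were 8.93% and 1.16% called, and 10.4% and 3.20% on the adjusted p alone. The median log2 fold change of the 33 genes was 0.01. In 6 of the 33 the groups did not overlap, against 9.17% of all tested genes.

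The proprotein convertases, which cleave the precursors of Nodal and other TGF-β ligands, were 3 in the list, of which 2 were called higher. *FURIN* had normalized read counts of 169, 68.2, 143, 193 and 81.5 in WT and of 209, 267, 324, 273 and 330 in *SOX2* KO embryos. Every *SOX2* KO embryo was above every WT embryo, and limma gave a log2 fold change of 1.19 with a standard error of 0.24 (adjusted p = 0.00455). Without nc2 that fold change was 0.98, just under the threshold on the fold. *PCSK5* had 53.4, 68.2, 80.5, 59.8 and 48.4 in WT and 224, 168, 166, 85.4 and 142 in *SOX2* KO embryos, again without overlap and with ko4 nearest to WT. The log2 fold change of *PCSK5* by limma was 1.28 with a standard error of 0.23 (adjusted p = 0.00172), and it remained called whichever embryo was removed. *PCSK6* had 0 to 4.97 in WT against 0.821 to 19.6 in *SOX2* KO embryos, with groups that overlap (limma adjusted p = 0.0711). With the *RN18S1* share as a covariate, which partly follows the genotype, both calls were lost. The log2 fold changes were then 0.76 for *FURIN* (limma adjusted p = 0.201) and 1.05 for *PCSK5* (limma adjusted p = 0.0818).

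Among the inhibitors, *FSTL3*, which encodes a protein of the follistatin family that binds activins, rose from 11.8 ± 6.58 to 28.0 ± 5.46 (SD, n = 5 each). WT embryos reached 19.9 and *SOX2* KO embryos began at 23.0. Its log2 fold change was 1.32 (limma adjusted p = 0.0282), and it was no longer called in 7 of the 10 fits with an embryo removed (without nc1, nc2, nc4, ko1, ko2, ko3 or ko5, adjusted p up to 0.0707) with edgeR (adjusted p = 0.0541) and with quantile normalization (adjusted p = 0.0894). With the *RN18S1* covariate the log2 fold change of *FSTL3* was 1.24 (limma adjusted p = 0.247). *SMAD7*, the inhibitory SMAD that TGF-β ligands induce, rose from 89.9 ± 14.0 to 144 ± 40.4 (SD, n = 5 each), a log2 fold change of 0.65 (limma adjusted p = 0.0360). Its groups met at 105, the change was under the threshold on the fold, and the adjusted p was above 0.05 without nc2, nc5, ko1, ko2 or ko5 (up to 0.118), with edgeR (0.0527) and with the *RN18S1* covariate (log2 fold change 0.40, adjusted p = 0.456). *BAMBI*, a decoy receptor, stood at a log2 fold change of 0.16 and *PMEPA1* at 0.46, with limma adjusted p of 0.795 and 0.463.

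Of the genes that work with SMAD2 inside the cell, *ZFYVE9*, which encodes the anchor that presents SMAD2 to the receptor, fell from 37.4 ± 12.4 to 17.5 ± 5.68 (SD, n = 5 each). WT embryos ranged from 21.0 to 49.7 and *SOX2* KO embryos from 12.3 to 26.7, so the groups overlapped. Its log2 fold change was -1.04 (limma adjusted p = 0.0390), and the call was kept in 2 of the 10 fits that left out an embryo, those without nc4 or ko1, with adjusted p up to 0.0983. It was also lost with equal totals (limma adjusted p = 0.0552), with the median log ratio (log2 fold change -0.94, limma adjusted p = 0.0689) and with a pseudocount of 5, where the log2 fold change was -0.90. With the *RN18S1* covariate the log2 fold change of *ZFYVE9* was -1.05 (limma adjusted p = 0.249). *TRIM33*, a chromatin reader that binds phosphorylated SMAD2 and SMAD3, fell from 298 ± 37.0 to 192 ± 19.9 (SD, n = 5 each) with no overlap, a log2 fold change of -0.63 (limma adjusted p = 0.0115). With the *RN18S1* covariate its log2 fold change was -0.70 and its limma adjusted p 0.0722. *SMAD4*, the common partner, had 153 ± 18.5 and 155 ± 26.1 (SD, n = 5 each), with a 95% interval of the log2 fold change from -0.34 to 0.37. For *SMAD3* the log2 fold change was 0.33 (limma adjusted p = 0.554), and for *FOXH1* it was -0.35 (limma adjusted p = 0.529). All 6 nuclear partners and corepressors had values below 0, from -0.59 for *SKIL* to -0.13 for *DRAP1*, and 0 of them passed limma's adjusted p. An unadjusted p under 0.05 was found for 2 of the 6, a share near the 32.4% of all tested genes.

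The target genes of later development did not move together. *OTX2* is a homeobox gene of the anterior epiblast. Its mean was 318 ± 28.8 (SD, n = 5) in WT against 71.2 ± 35.3 (SD, n = 5) with *SOX2* KO, and it fell by 2.31 on the log2 scale (limma adjusted p = 4.01e-05). *GSC*, the gene of the organizer factor goosecoid, had 32.8, 29.7, 42.8, 28.0 and 23.0 in WT and 7.79, 5.28, 15.1, 11.5 and 8.07 in *SOX2* KO embryos. All WT embryos were above all *SOX2* KO embryos, and the gene fell by 1.66 on the log2 scale with a standard error of 0.36 (limma adjusted p = 0.00637), a call kept whichever embryo was removed and with the *RN18S1* covariate. *EOMES* had at most 3 reads in any embryo, and *FOXA2* at most 1.18 normalized counts in WT against 0.821 to 15.6 in *SOX2* KO embryos (limma adjusted p = 0.0810).

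**Figure D4:**
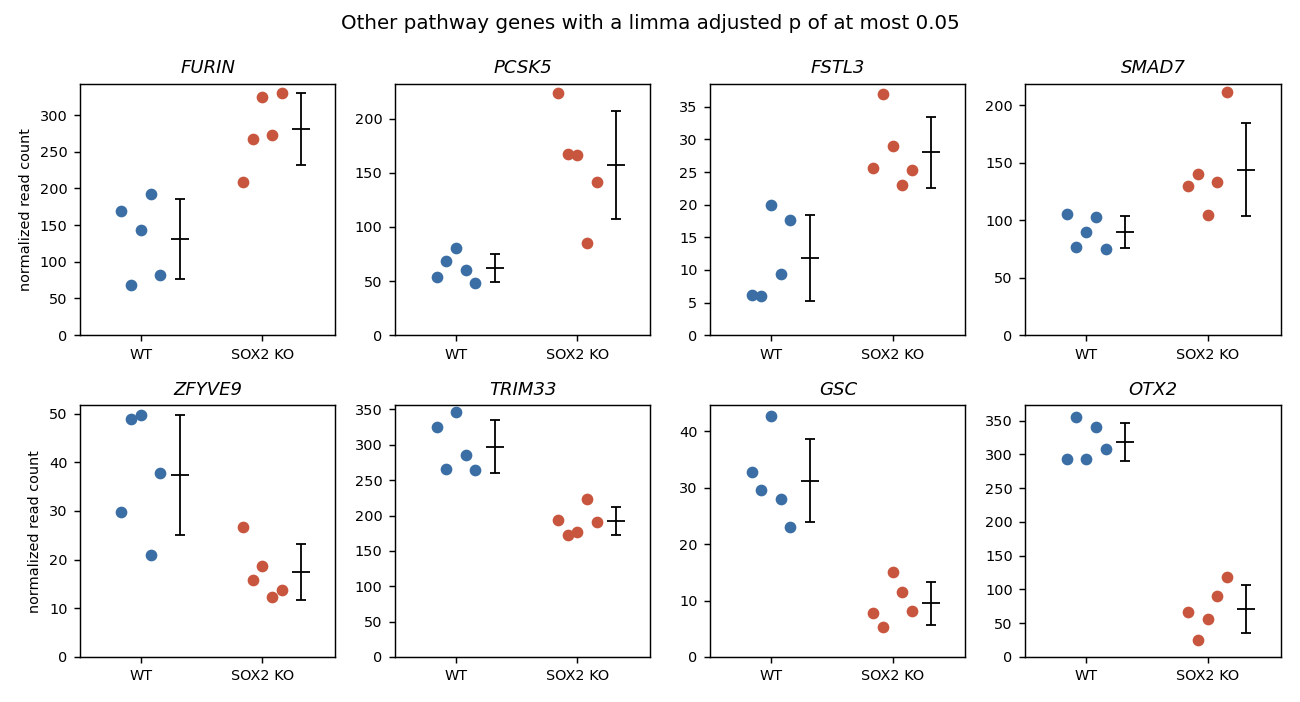
Normalized read count (y axis, linear, a separate scale for each gene) of the 8 other pathway genes whose limma adjusted p was 0.05 or less, in the 5 WT (blue) and 5 *SOX2* KO (red) embryos, with the mean and SD as a black bar. *FURIN*, *PCSK5*, *FSTL3*, *TRIM33*, *GSC* and *OTX2* show groups without overlap, and *SMAD7* and *ZFYVE9* show groups that overlap.

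*LEFTY2* and *GDF3* were the members for which alternatives changed whether the gene was called. *SMAD2* passed the adjusted p without ko4 (limma adjusted p = 0.0363) but not the threshold on the fold. The adjusted p of *LEFTY2* lay between 0.0131 with quantile normalization and 0.503 with the *RN18S1* covariate. That of *GDF3* lay between 0.0344 without ko4 and 0.989. No alternative of test, scaling, filter or pseudocount called *ACVR1B*, *ACVR2B*, *SMAD2*, *TDGF1*, *INHBA* or *INHBB*, and neither did leaving out an embryo.

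**Figure D5:**
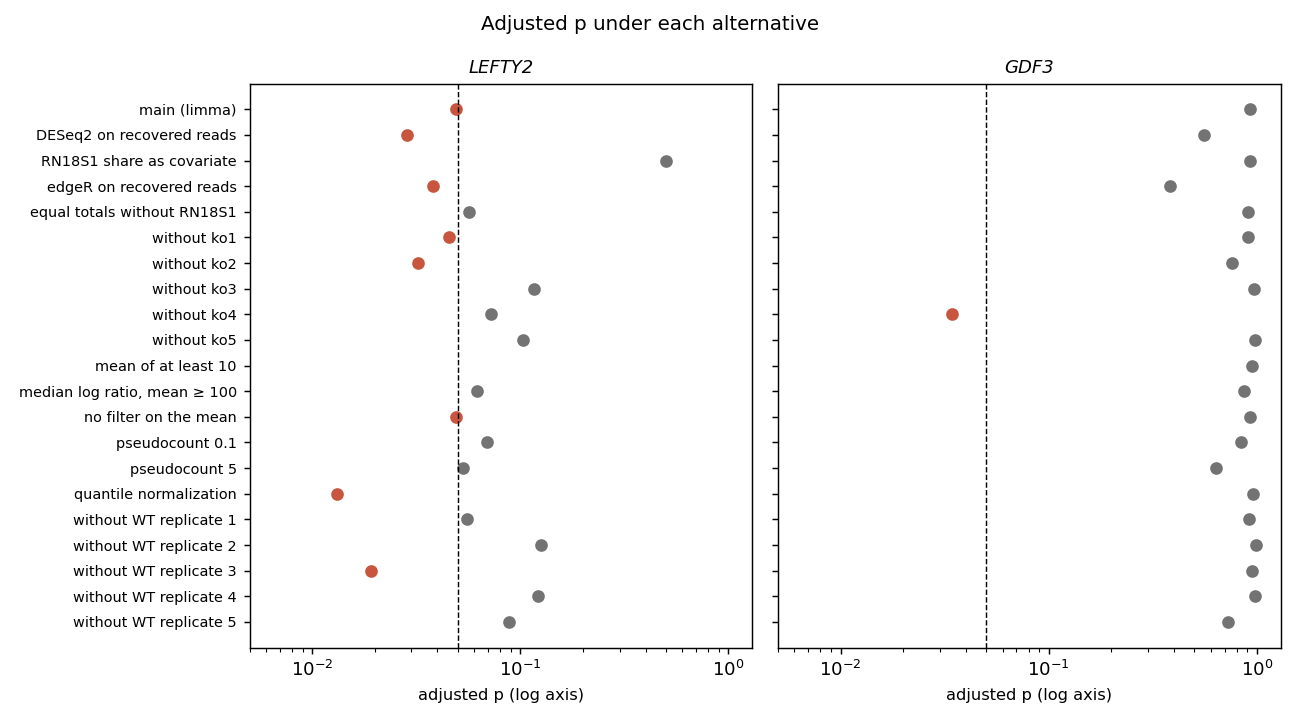
Adjusted p (x axis, log scale) of *LEFTY2* (left) and *GDF3* (right) in the main limma fit and under each alternative (y axis), with the threshold of 0.05 as a dashed line and values at or under it in red. *LEFTY2* scatters on both sides of the line, from 0.0131 to 0.503, and *GDF3* crosses it in the fit without ko4 only; a mean of at least 10 leaves *LEFTY2* out.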

How the data were processed

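Per the labels and the study's methods, the authors used Trimmomatic on the Smart-seq2 reads, Hisat2 for alignment to the assembly ARS-UCD1.2, featureCounts for gene counts and DESeq2 for normalization. The deposited values are a normalized signal, the count of a gene divided by the size factor of the embryo. Annotation release and strand setting are not given in the sources used here, so reads of similar or overlapping genes could be shared. Each embryo's values were multiples of a single step, which gave back whole reads for 201120 of 201120 values (100%, tolerance 1e-06). No gene had fewer than 11 reads in total. Columns were assigned to groups by name. The numbers of the *SOX2* KO columns are not those of the labels and were used as names only.

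limma 3.58.1 (trend) was fitted on log2(normalized read count + 1) over genes with a mean of at least 1, two-sided, without covariates. A fold change on this scale understates that of low genes. Alternatives were DESeq2 1.42.0 and edgeR 4.0.16 (quasi-likelihood) on the recovered reads in R 4.3.3, pseudocounts of 0.1 and 5, other filters and scalings, the *RN18S1* share as a covariate and each embryo left out. The scripts were tested on simulated data. The members, gene lists and tests were chosen with earlier results of these data known, and the named genes are the members, the listed genes that passed or exemplify a count, and the nearest patterns. The values of 1 listed gene are not reported here, though the counts include it. Coordinates, lengths and sequences were not used here, because the gene table at hand is of another assembly.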

Additional observations from a re-analysis of the deposited data

Results flagged for a closer look

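A single embryo far from the rest of its group was found in 2 of 34 groups of 5 embryos, where about 1.7 are to be had by chance. *GDF3* had a normalized read count of 73.2 (124 reads) in the WT embryo nc5 and 11.9 to 28.2 in the other WT embryos. *INHBB* had 17.4 (15 reads) in the *SOX2* KO embryo ko3 and 1.32 to 5.77 in the others.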

How the results depend on the processing

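The number of members called was 1, and 0 with pseudocounts of 0.1 or 5, a mean of at least 10 (which leaves out *LEFTY2*), equal totals, the median log ratio or the *RN18S1* covariate; leaving out each embryo gave 0 to 1, and without ko4 the member called was *GDF3* in place of *LEFTY2*. The other pathway genes called were 6, 2 with the covariate and 3 to 7 without 1 embryo (3 without nc2). Calls over all genes were 220 with the covariate, 692 with a mean of at least 10, 1076 with quantile normalization (58.5% higher, against 88.5%), 1185 with a pseudocount of 5, and 930 to 3316 without 1 embryo (1066 without ko1, 1291 without nc1, 1230 without nc2, 1273 without nc4). Quantile normalization shifted the median log2 fold change of all genes by -0.27 and the covariate by -0.11. Log2 fold changes near 0 changed sign. *GDF3* had -0.30 with the covariate, -0.48 with a pseudocount of 0.1 and -0.43 to 1.34 without 1 embryo. *INHBA* had -0.63 with quantile normalization. *INHBB* had 0.14 with DESeq2, 0.050 with edgeR, 0.057 with the median log ratio, 0.024 with a pseudocount of 5 and -0.41 to 0.34 without 1 embryo. *ACVR1B* had 0.0085 with DESeq2 and -0.37 to 0.16 without 1 embryo. *SOX2* kept its direction and stayed uncalled throughout. The causes were not tested. At this depth *INHBA* is at the floor, and *TDGF1*, *INHBB* and *LEFTY2* rest on 9 to 32 reads over all *SOX2* KO embryos. No paired analysis was possible because each library is a separate embryo, no source ties their numbers to a shared batch or day, and *SOX2* KO columns are not numbered as their labels are.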

Other observations

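Ligand genes of the list outside the members were near the floor. *INHBE*, which encodes the inhibin βE subunit, was listed at 0 in all 5 WT embryos and had 5, 1, 0, 3 and 3 reads in *SOX2* KO embryos ko1 to ko5. Its adjusted p was 0.0555 with limma, 0.0744 with DESeq2 and 0.0359 with edgeR. *GDF11* ranged over 0 to 2.36 normalized counts in WT and had 1.32 to 4.65 with *SOX2* KO (limma adjusted p = 0.128). Both have a mean of 1 to under 10. The 8722 tested genes of that level had a median log2 fold change of 0.93, with 1229 called higher and 17 lower. Higher values in *SOX2* KO are therefore not read as particular to these ligand genes.

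Embryo ko4, which held no read of *GDF3*, also stood apart in *CYP11A1*, the gene of the enzyme that starts steroid synthesis from cholesterol. Its normalized read count was 1.64 in ko4, whereas ko1, ko2, ko3 and ko5 had 228 to 402 and WT embryos 14.8 to 83.9. With all embryos its adjusted p was 0.196 with limma, 0.0579 with DESeq2 and 0.0164 with edgeR. It was picked after its values were seen.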
